A study of Mus musculus with 10 samples.

Results

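In mouse embryos at embryonic day 11.5, 5 of 48 cell division genes (10.4%, beside 25.8% of all genes tested) differed between embryos labelled *Wwc2* knockout and wildtype embryos. The inhibitor *Cdkn1b* and the replication licensing factor *Cdt1* were higher, the inhibitor *Cdkn2c*, the activator *E2f2* and *Mki67* were lower, and no helicase subunit, mitotic cyclin or checkpoint gene passed the test with the authors' scaling of the libraries. The genes are 48 named regulators and enzymes of the cell cycle, of DNA replication and of mitosis, taken by gene symbol out of the 24302 genes of the deposited tables. They comprise 16 genes of G1, 15 of S phase and 17 of G2 and mitosis, and all 48 were listed and passed the filter on low means. The set was composed for the comparison of these phases. It holds *Birc5*, for which the study lists qRT-PCR primers, while its text gives no *Birc5* result. RNA was sequenced from whole C57BL/6 embryos, 3 wildtype, 3 heterozygous and 4 homozygous for the *Wwc2* knockout (KO), 10 in all. The floxed allele had been deleted with a *Zp3-Cre* line, which acts in the oocyte and so also removes the maternal transcript. Because the whole embryo was taken, a transcript that is lower because fewer cells of a type were present cannot be told apart from one that is lower in each cell. The paper describes KO embryos of this day as growth retarded, less developed than controls and nearly without blood-filled vessels. The part of this delay in the values was not tested.

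The cell cycle is driven by cyclin-dependent kinases (CDKs) and their cyclins. In G1, D-type cyclins with CDK4 and CDK6, followed by E-type cyclins with CDK2, phosphorylate the RB family and release E2F transcription factors, while CDK inhibitors restrain these kinases. Replication origins are licensed by loading the MCM helicase, and in G2 and mitosis CDK1, Aurora and Polo kinases and the spindle checkpoint take over. Dividing cells of many tissues transcribe the S phase genes through E2F sites and the mitotic genes through the cell cycle homology region (CHR), often together with CCAAT boxes.

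The promoters of these genes carried the letters of those motifs to different degrees in the 3 phases. Of the 48 genes, 39 matched a RefSeq promoter window (build GRCm38.p6) that runs from 250 bases before to 50 bases after a transcript start, with 44 windows in all. Both strands were searched for TTTNNCGC (E2F), for TTTGAA or TTCGAA (CHR) and for CCAAT, and of 106 matches 2 overlapped a match of another motif. The E2F letters were found in 57.1% of the 14 windows of S phase genes, in 31.2% of the 16 windows of G1 genes and in 7.14% of the 14 windows of G2/M genes, against 5.17% of all 32851 windows. The CHR letters were found in 71.4% of the G2/M windows, 21.4% of the S windows and 18.8% of the G1 windows, against 19.2% of all windows. CCAAT was present in 85.7% of the G2/M, 78.6% of the S and 43.8% of the G1 windows, against 37.4% of all. A match is a description of the letters and not a binding site.

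**Figure D1:**
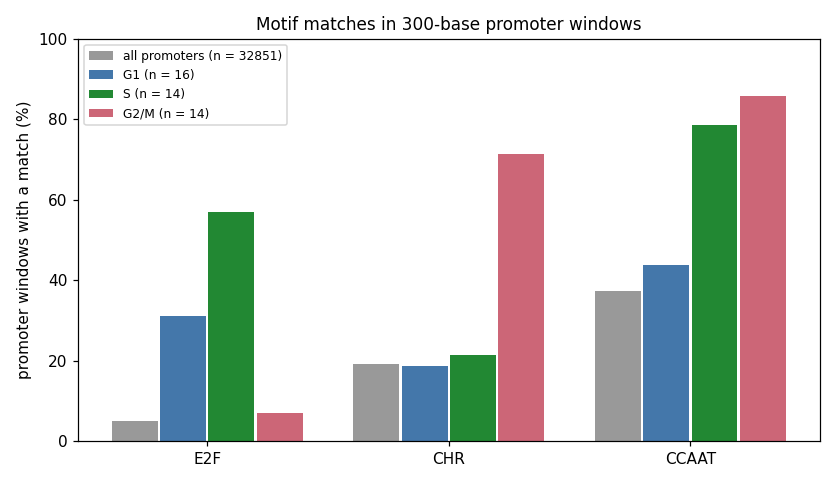
Share of promoter windows (%, vertical axis) with at least 1 match of the E2F, CHR or CCAAT letters, for all RefSeq windows (grey) and for the windows of G1 (blue), S (green) and G2/M (red) genes. E2F letters peak in the S windows at 57.1% and CHR letters in the G2/M windows at 71.4%.

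Windows of 6 genes are shown because 4 of them belong to genes that differed between KO and wildtype embryos and the other 2 carry the most E2F or CHR matches. The matched letters are in capitals, and each window reads in the direction of the gene. That of *E2f2* is the first of 2 windows and lies at chr4:136172024-136172323 on the plus strand, that of *Cdt1* at chr8:122567765-122568064 on the plus strand and that of *Mcm6* at chr1:128359656-128359955 on the minus strand. That of *Mki67* lies at chr7:135716330-135716629 on the minus strand, that of *Top2a* at chr11:99024140-99024439 on the minus strand and that of *Cdkn1b* at chr6:134920151-134920450 on the plus strand.
E2f2: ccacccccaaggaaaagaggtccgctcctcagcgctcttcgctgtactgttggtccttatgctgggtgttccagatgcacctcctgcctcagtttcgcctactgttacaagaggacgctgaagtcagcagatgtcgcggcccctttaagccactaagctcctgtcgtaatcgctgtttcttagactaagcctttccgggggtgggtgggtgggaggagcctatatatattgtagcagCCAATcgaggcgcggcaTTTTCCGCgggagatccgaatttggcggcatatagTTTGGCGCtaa
Cdt1: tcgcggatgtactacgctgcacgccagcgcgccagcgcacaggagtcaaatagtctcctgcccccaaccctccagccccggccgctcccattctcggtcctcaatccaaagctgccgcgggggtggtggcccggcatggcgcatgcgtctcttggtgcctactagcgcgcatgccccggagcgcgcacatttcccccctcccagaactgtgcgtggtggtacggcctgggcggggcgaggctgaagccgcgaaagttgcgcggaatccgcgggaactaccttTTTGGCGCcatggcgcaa
Mcm6: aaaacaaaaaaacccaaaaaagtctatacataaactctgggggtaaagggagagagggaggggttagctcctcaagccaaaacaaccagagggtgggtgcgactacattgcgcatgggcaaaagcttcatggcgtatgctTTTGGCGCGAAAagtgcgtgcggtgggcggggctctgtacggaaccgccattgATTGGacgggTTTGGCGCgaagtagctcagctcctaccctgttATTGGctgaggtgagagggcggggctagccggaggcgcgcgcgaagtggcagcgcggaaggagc
Mki67: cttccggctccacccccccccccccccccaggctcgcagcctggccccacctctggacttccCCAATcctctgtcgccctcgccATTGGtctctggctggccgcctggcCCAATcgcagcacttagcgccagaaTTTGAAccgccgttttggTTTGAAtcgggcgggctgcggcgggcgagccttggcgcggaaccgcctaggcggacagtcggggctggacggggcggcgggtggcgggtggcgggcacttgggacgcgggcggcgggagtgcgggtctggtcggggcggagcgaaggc
Top2a: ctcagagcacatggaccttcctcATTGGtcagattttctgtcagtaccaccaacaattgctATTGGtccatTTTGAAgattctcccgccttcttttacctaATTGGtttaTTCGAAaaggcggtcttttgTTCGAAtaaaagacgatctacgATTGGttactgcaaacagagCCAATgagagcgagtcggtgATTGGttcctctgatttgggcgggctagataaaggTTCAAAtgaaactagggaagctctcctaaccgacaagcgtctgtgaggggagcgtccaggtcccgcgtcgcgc
Cdkn1b: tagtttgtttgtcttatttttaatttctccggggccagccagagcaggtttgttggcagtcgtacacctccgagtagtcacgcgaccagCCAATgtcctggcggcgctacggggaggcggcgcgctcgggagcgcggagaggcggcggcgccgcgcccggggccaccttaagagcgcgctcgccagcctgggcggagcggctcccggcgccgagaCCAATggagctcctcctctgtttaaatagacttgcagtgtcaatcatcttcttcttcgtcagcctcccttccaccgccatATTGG
In the first *E2f2* window 2 E2F matches stand near the transcript start, and in *Cdt1* a single one stands there. *Mcm6* has 3, of which the first pair share bases on opposite strands. *Mki67* has 3 CCAAT and 2 CHR matches and *Top2a* 6 and 4, whereas *Cdkn1b* has 3 CCAAT matches and neither of the others.

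The values come from the authors' deposited tables, which hold for each gene a mean normalized read count over the 10 embryos and the log2 fold change of KO versus wildtype and of heterozygous versus wildtype embryos with its standard error. From these, the mean of each genotype and its standard error were derived, and no value of a single embryo can be given. The targeted gene itself had derived means of 1971 among wildtype, 1860 among heterozygous and 2421 among KO embryos, with a log2 fold change of 0.30 for KO against wildtype embryos (SE 0.17, adjusted p = 0.176 in the authors' deposited table). The count covers the whole gene, and exon values were not analysed here, so the genotype labels stand unchecked by this measure. The mean normalized counts sum to 2.56e+07 per embryo. At an adjusted p under 0.05, 25.8% of the 17477 genes tested differed by the adjusted p of the deposited table for KO against wildtype embryos, 15.6% higher and 10.2% lower.

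Between KO and wildtype embryos, 5 of the 48 genes (10.4%, beside 25.8% of all genes tested) passed the test. *Cdkn1b* and *Cdt1* were higher and *E2f2*, *Cdkn2c* and *Mki67* were lower. With the libraries scaled by total counts, 24 passed, 1 higher and 23 lower, beside 39.2% of all genes. With the adjustment over every gene with a p-value, *Cdkn2c* and *Mki67* no longer passed, and with a t distribution on 7 degrees of freedom none of the 48 and none of all 17477 genes did. Another 9 genes had an unadjusted p under 0.05 without passing after adjustment, which makes 14 of the 48. Among all genes tested, at least the 25.8% that passed after adjustment had such a p-value, so the 14 are a description only. The median absolute log2 fold change was 0.22, against 0.41 over all genes tested, and the median was -0.03, against 0.02. The median standard error was 0.17 for the 48 genes and 0.25 over all genes tested. The 95% interval of the log2 fold change lay within 1 unit of 0, a 2-fold change in either direction, for 40 of the 48 genes and within 0.5 units for 21. The same counts were not taken over all genes, whose median standard error was larger.

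**Figure D2:**
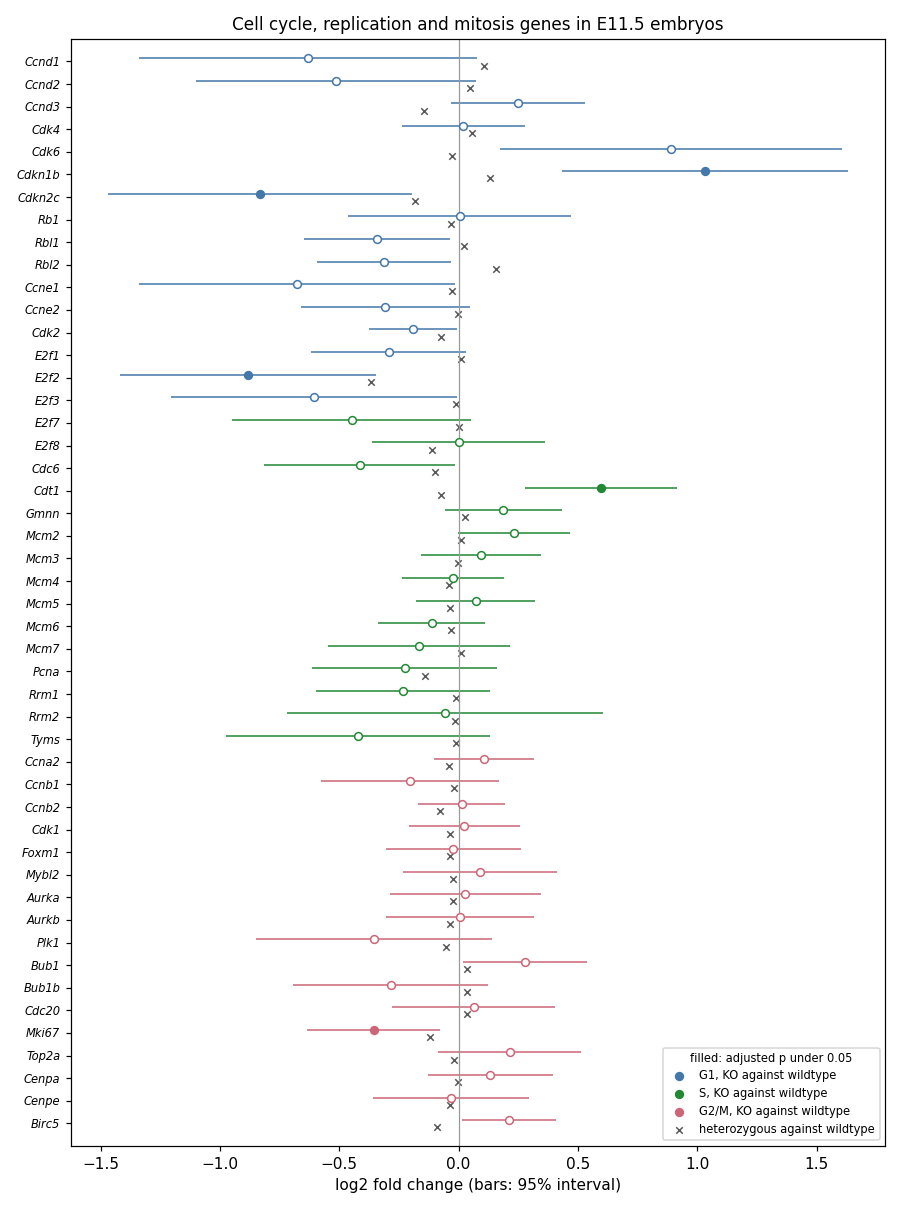
Log2 fold change of each of the 48 genes (horizontal axis) for KO against wildtype embryos with its 95% interval, for G1 (blue), S (green) and G2/M genes (red), with heterozygous versus wildtype embryos as crosses. Filled points mark the 5 genes with an adjusted p under 0.05, and the intervals narrow from the G1 to the G2/M genes.

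Markers of other cell types moved in the same libraries. Of 10 trophoblast markers 9 were higher for KO against wildtype embryos, and the summed mean of the 10 was 999 among wildtype, 2403 among heterozygous and 40505 among KO embryos. The largest parts of the KO sum had wide derived errors, with means of 16617 ± 9418 for *Tpbpa* and 16431.5 ± 10339 for *Prl3b1*. The sum therefore does not show a rise of similar size in each KO embryo. Of 10 neuron markers 8 were lower, with sums of 44372, 49756 and 21091. Of 8 tested erythroid markers 1 was higher and 1 lower, with sums of 275042, 214400.0 and 263428, and *Hba-a1* was at 0. Of 8 neural progenitor markers *Vim* was higher and 0 were lower by the test, while 5 of the 8 had log2 fold changes below 0 and the median was -0.37. Their sums were 48536, 52794 and 60526 with *Vim*, and 24279.5, 27655 and 15892 without it. The part of these markers in the values of the cell cycle genes was not tested. The 48 genes themselves summed to 0.888% of all derived counts among wildtype, 0.883% among heterozygous and 0.714% among KO embryos, and their sums were 211513, 209020.3 and 201878.

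The CDK inhibitors changed in opposite directions. *Cdkn1b* (ENSMUSG00000003031, chr6:134920401-134925513) encodes p27, an inhibitor of CDK2 complexes that holds cells in G1. Its mean normalized count was 1679 ± 269.7 among wildtype (derived SE, n = 3), 1840.3 ± 295 among heterozygous (derived SE, n = 3) and 3437 ± 477 among KO embryos (derived SE, n = 4). The wildtype and heterozygous means thus lay within their errors and the KO mean stood above both, with a log2 fold change of 1.03 versus wildtype (SE 0.31, adjusted p = 0.00827 in the authors' deposited table). *Cdkn2c* (chr4:109660876-109667189) encodes p18, an inhibitor of CDK4 and CDK6. It had 308 ± 52.1 among wildtype, 271 ± 45.9 among heterozygous and 173 ± 25.7 among KO embryos and fell by 0.83 on the log2 scale versus wildtype (SE 0.32, adjusted p = 0.0434). The ratio of *Cdkn1b* to *Cdkn2c* counts was 5.45 among wildtype, 6.78 among heterozygous and 19.9 among KO embryos.

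None of the 5 D-type cyclin and kinase genes passed the test for KO against wildtype embryos. *Cdk6* came nearest, with means of 197 among wildtype, 194 among heterozygous and 366 among KO embryos and a log2 fold change of 0.89 (SE 0.36, adjusted p = 0.0546). *Cdk4*, the other kinase gene of this group, had a log2 fold change of 0.02 with a 95% interval from -0.24 to 0.28. *Ccnd1* and *Ccnd2* had lower means in KO embryos, with log2 fold changes of -0.63 (SE 0.36, adjusted p = 0.171) and -0.51 (SE 0.30, adjusted p = 0.179). The means of *Ccnd1* were 8690.3 among wildtype, 9358 among heterozygous and 5611 among KO embryos. Those of *Ccnd3* were 5715, 5169.8 and 6788, in the other direction, so that the ratio of *Ccnd3* to *Ccnd1* counts was 0.658 in wildtype and 1.21 in KO embryos. These counts are not corrected for gene length. Per kilobase of exon, *Ccnd1* stayed above *Ccnd3*, with 1845 against 651 in wildtype and 1192 against 774 in KO embryos. Counts of *Ccnd1* and *Cdk4* may be affected by a neighbour if strand was not used in counting, in a direction that was not tested. Of their exon bases, 23.4% and 19.7% are shared with a gene on the opposite strand. The same holds for other genes, among them *Ccne2* (17.4%), *Ccna2* (12.5%), *E2f8* (11.2%) and *Rbl2* (11.8% and 9.17% with different genes).

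Among the E2F activators, which switch on genes of S phase, *E2f2* (chr4:136172394-136196057) passed the test. It had 1151 ± 164 among wildtype, 892 ± 128 among heterozygous and 624 ± 77.6 among KO embryos and fell by 0.88 on the log2 scale versus wildtype (SE 0.27, adjusted p = 0.0113 in the authors' deposited table). The heterozygous mean of *E2f2* lay between the others, and its log2 fold change of -0.37 versus wildtype (SE 0.29, unadjusted p = 0.206) was the farthest from 0 of the 48 genes in that comparison. *E2f3* and *E2f1* had log2 fold changes of -0.61 (SE 0.31, adjusted p = 0.119) and -0.29 (SE 0.17, adjusted p = 0.167). Of the E-type cyclins and their kinase, none of 3 passed. *Ccne1* had -0.68 (SE 0.34, adjusted p = 0.115), *Ccne2* -0.31 and *Cdk2* -0.19 (SE 0.09, adjusted p = 0.108), the narrowest error of the G1 genes. In the RB family, whose proteins bind E2Fs, *Rb1* had 0.00 (SE 0.24), while *Rbl1* and *Rbl2* had -0.34 (SE 0.16, adjusted p = 0.0833) and -0.31 (SE 0.14, adjusted p = 0.0846).

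The S phase genes held 1 gene past the test. *Cdt1* (chr8:122568015-122573554) encodes the factor that brings the MCM helicase to origins. Its mean was 1819 ± 155 among wildtype, 1728 ± 148 among heterozygous and 2751 ± 202 among KO embryos, a log2 fold change of 0.60 versus wildtype (SE 0.16, adjusted p = 0.00404 in the authors' deposited table). The mean was 1.51-fold that of wildtype embryos, and it had the smallest p of the 48 genes. *Gmnn* encodes geminin, which binds and inhibits CDT1, and had a log2 fold change of 0.19 (SE 0.13, adjusted p = 0.247). The ratio of *Cdt1* to *Gmnn* counts, not corrected for gene length, was 1.30 among wildtype, 1.21 among heterozygous and 1.73 among KO embryos. Per kilobase of exon, *Cdt1* lay below *Gmnn*, with 579 against 956 in wildtype and 876 against 1088 in KO embryos. *Cdc6*, which loads the helicase together with CDT1, had -0.42 (SE 0.20, adjusted p = 0.11).

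The 6 subunits of the MCM2-7 helicase lay between -0.17 (*Mcm7*) and 0.23 (*Mcm2*) on the log2 scale, 3 above and 3 below 0, and 0 passed. Scaled by total counts, all 6 lay below 0, and *Mcm6* (-0.36, adjusted p = 0.00791) and *Mcm4* (-0.27, adjusted p = 0.0378) passed as lower. Of all genes, 30.9% were lower under that scaling. *Mcm2* had means of 7318, 7362 and 8598 among wildtype, heterozygous and KO embryos (log2 fold change 0.23, SE 0.12, adjusted p = 0.129). *Mcm4* had 5546, 5399 and 5459, with a 95% interval from -0.24 to 0.19. The subunits of this ring were also close in level, from 1128 to 1696 counts per kilobase of exon over the 10 embryos, a 1.504-fold range beside a 286-fold range over the 48 genes. *Pcna*, the sliding clamp, and the nucleotide enzymes *Rrm1*, *Rrm2* and *Tyms* all had log2 fold changes below 0, from -0.42 for *Tyms* (SE 0.28, adjusted p = 0.246) to -0.06 for *Rrm2* (SE 0.34), and none of the 4 passed. The repressors *E2f7* and *E2f8*, which close the E2F programme, had -0.45 (SE 0.26, adjusted p = 0.171) and 0.00 (SE 0.18). All 15 intervals of the S phase genes lay within 1 unit of 0.

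Of the 17 G2/M genes, *Mki67* passed the test. *Mki67* (chr7:135689784-135716361) encodes Ki-67, a protein that coats mitotic chromosomes and is used as a label of dividing cells. Its mean was 15279 ± 1137 among wildtype, 14061 ± 1046 among heterozygous and 11937 ± 769 among KO embryos, and it fell by 0.36 on the log2 scale versus wildtype (SE 0.14, adjusted p = 0.0481 in the authors' deposited table). This change, to 0.781 of the wildtype mean, was the smallest of the 5 and lay nearest to the threshold. *Top2a*, the topoisomerase of dividing cells, had means of 17499.8 among wildtype, 17238 among heterozygous and 20297 among KO embryos, a log2 fold change of 0.21 in the other direction (SE 0.15, adjusted p = 0.28). The ratio of *Mki67* to *Top2a* counts was 0.873 among wildtype, 0.816 among heterozygous and 0.588 among KO embryos. The centromere genes *Cenpa* and *Cenpe* had 0.13 (SE 0.13) and -0.03 (SE 0.17).

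Several kinase and cyclin genes that drive mitosis were among those with the narrowest intervals. *Cdk1* had a log2 fold change of 0.02 with a 95% interval from -0.21 to 0.26, *Ccnb2* 0.01 from -0.17 to 0.19 and *Ccna2* 0.11 from -0.10 to 0.32. *Ccnb1* had -0.20 (SE 0.19, adjusted p = 0.422). The mitotic transcription factors *Foxm1* and *Mybl2* had -0.02 (SE 0.14) and 0.09 (SE 0.16). The Aurora kinases *Aurka* and *Aurkb* had 0.03 and 0.00 (SE 0.16 for both), and *Plk1* had -0.35 (SE 0.25, adjusted p = 0.279). Of the checkpoint kinases, *Bub1* had 0.28 (SE 0.13, adjusted p = 0.0994) and *Bub1b* -0.29 (SE 0.21, adjusted p = 0.295), while *Cdc20*, the activator of the anaphase-promoting complex, had 0.06 (SE 0.17). All 17 intervals lay within 1 unit of 0, and 11 lay within 0.5 units. Scaled by total counts, *Ccnb1*, *Ccnb2*, *Plk1* and *Bub1b* passed as lower (adjusted p = 0.0472, 0.032, 0.0451 and 0.0321), beside 30.9% of all genes.

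*Birc5* (chr11:117849251-117855743) encodes survivin, a subunit of the chromosomal passenger complex that also blocks apoptosis, and it is listed among targets of YAP. Its mean was 2512 ± 133 among wildtype, 2361 ± 125 among heterozygous and 2905 ± 133 among KO embryos. The log2 fold change was 0.21 for KO against wildtype embryos, with a 95% interval from 0.01 to 0.41 (SE 0.10, unadjusted p = 0.0376, adjusted p = 0.102 in the authors' deposited table). Against heterozygous embryos it was 0.30 (SE 0.10), which passed the derived test (adjusted p = 0.0219) but not when the libraries were scaled by total counts. The qRT-PCR primers of the study are shown because they read a part of the gene, whereas the sequencing counts the whole. On the GRCm38 transcripts of GENCODE M21, the forward primer lies in exon 2 at chr11:117849844-117849863, and the reverse primer spans the junction of exons 3 and 4 of the 4-exon transcript, with an amplicon of 151 bases.
Birc5 forward: gaacccgatgacaacccgat
Birc5 reverse: tggtctcctttgcaattttgttc
The 3-exon transcript of *Birc5* holds the forward but not the reverse site, so this pair reads the 4-exon form only, while the RNA-seq value sums both.

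**Figure D3:**
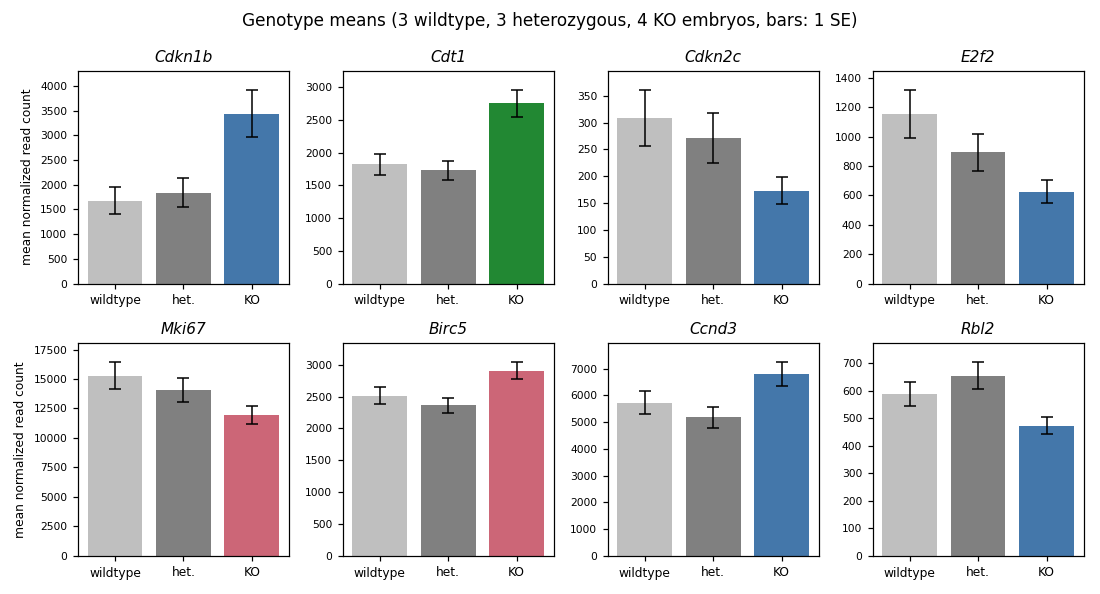
Derived mean normalized read count (vertical axis from 0) of 8 genes among wildtype, heterozygous and KO embryos, with 1 standard error. *Cdkn1b* and *Cdt1* stand higher in KO embryos and *Cdkn2c*, *E2f2* and *Mki67* lower, while *Birc5*, *Ccnd3* and *Rbl2* differ between KO and heterozygous embryos, of which *Rbl2* alone also passes when scaled by total counts.

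By phase, the G1 genes were the most spread. Their median log2 fold change for KO against wildtype embryos was -0.31, with 11 of 16 below 0 and a range from -0.88 to 1.03. That of the S phase genes was -0.06, with 9 of 15 below 0, and that of the G2/M genes was 0.02, with 6 of 17 below 0. The median absolute log2 fold change was 0.43 in G1, 0.19 in S and 0.11 in G2/M, beside 0.41 over all genes tested. The standard errors ran in the same order, with medians of 0.26, 0.18 and 0.15. Of the genes that passed, 3 belong to G1 (18.8% of its genes), 1 to S (6.67%) and 1 to G2/M (5.88%), and each of these shares lay below the 25.8% of all genes tested. Genes of a phase share the same embryos and are no replicates, so these are descriptions with no test.

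The scaling of the libraries moved the values of all 3 phases by the same amount, and with it the sign of the G2/M median and the number of genes that passed. The authors' size factors place the median of all genes tested at 0.02, whereas the sum of derived counts of KO embryos exceeded that of wildtype embryos by 0.25 log2 units. Dividing by total counts moved every value down by that amount. Under this scaling 24 of the 48 genes passed, 1 higher and 23 lower, beside 39.2% of all genes, 30.9% lower. The medians were then -0.56 in G1, -0.30 in S and -0.22 in G2/M, against -0.22 over all genes tested, and 12 of 16, 7 of 15 and 5 of 17 genes passed. *Cdkn1b* was the higher gene (log2 fold change 0.79, adjusted p = 0.0304), and *E2f2*, *Cdkn2c* and *Mki67* were among the lower. *Cdt1* did not pass (0.35, adjusted p = 0.0719), and *Birc5* was at -0.037 (adjusted p = 0.8). Relative to the median of all genes, the values of each scaling are the same.

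**Figure D4:**
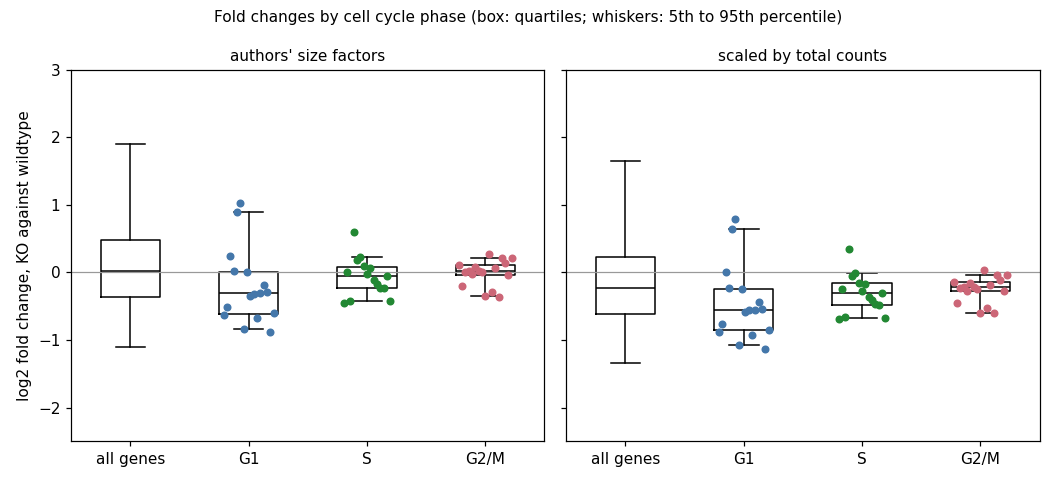
Log2 fold change for KO against wildtype embryos (vertical axis) of all genes tested and of the G1, S and G2/M genes, with the authors' size factors (left) and scaled by total counts (right). Boxes give quartiles, whiskers the 5th to 95th percentile and points single genes, and the G1 genes have the lowest median in both panels, -0.31 and -0.56.

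Between heterozygous and wildtype embryos 0 of the 48 genes passed by the adjusted p of the authors' DESeq2 fit, and 0 had an unadjusted p under 0.05, while 0.00968% of all 20653 genes tested, 2 genes, passed. The log2 fold changes lay between -0.37 and 0.16, with standard errors from 0.10 to 0.39, and 34 of 48 were below 0. Their median was -0.02, beside a median standard error of 0.18, and the genes share the same embryos, so that count is no test. The median absolute log2 fold change was 0.04, beside 0.09 over all genes.

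KO embryos were also set against heterozygous embryos, in a comparison derived from the standard errors of the tables. At an adjusted p under 0.05, 5 of the 48 genes passed, beside 21.4% of all 20653 genes. The higher genes were *Cdt1* (log2 fold change 0.67, SE 0.16, adjusted p = 0.00132), *Cdkn1b* (0.90, SE 0.31, adjusted p = 0.0229), *Birc5* and *Ccnd3* (0.39, SE 0.14, adjusted p = 0.0351). *Rbl2*, which encodes the pocket protein p130, was lower (-0.47, SE 0.14, adjusted p = 0.0107), with means of 589 ± 43.6 among wildtype, 656 ± 48.4 among heterozygous and 474 ± 30.8 among KO embryos. Scaled by total counts, 18 passed beside 32.8% of all genes, of which *Cdt1* was higher and 17, *Rbl2* among them, were lower, while *Cdkn1b*, *Birc5* and *Ccnd3* no longer passed. Both comparisons use the same 4 KO embryos. *E2f2*, *Cdkn2c* and *Mki67* had log2 fold changes of -0.51, -0.65 and -0.24 against heterozygous embryos (adjusted p = 0.16, 0.133 and 0.223), beside -0.88, -0.83 and -0.36 against wildtype embryos. Whether the changes against the 2 control groups differ from each other was not tested beyond the heterozygous versus wildtype comparison.

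The genes differed in level and in the fitted variation between embryos. Per kilobase of exon, *Cdk4* was the highest of the 48, with 5390.2 counts over the 10 embryos, followed by *Rrm2* (2431), *Pcna* (2288), *Cdc20* (2082) and *Top2a* (2057), and *Cdk6* was the lowest with 18.8. Counts per kilobase of *Ccnd1* and *Ccnd2* were 1845 and 1538 in wildtype and 1192 and 1077 in KO embryos, and those of *Ccnd3* were 651 and 774. The coefficient of variation between embryos of a genotype, derived from the standard errors, had a median of 23.0% in G1, 16.5% in S and 13.8% in G2/M genes. This coefficient is a single fitted value per gene, taken as equal in all genotypes, and not a spread observed in each. It ran from 8.13% for *Ccnb2* to 32.7% for *Ccnd1*, and *Cdk6* (32.4%), *Rrm2* (30.6%) and *Ccne1* (30.5%) were also high. That of *Birc5* was 8.94%. The median over the 10914 genes with a mean at least as high as the lowest of the 48 was 16.8%.

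**Figure D5:**
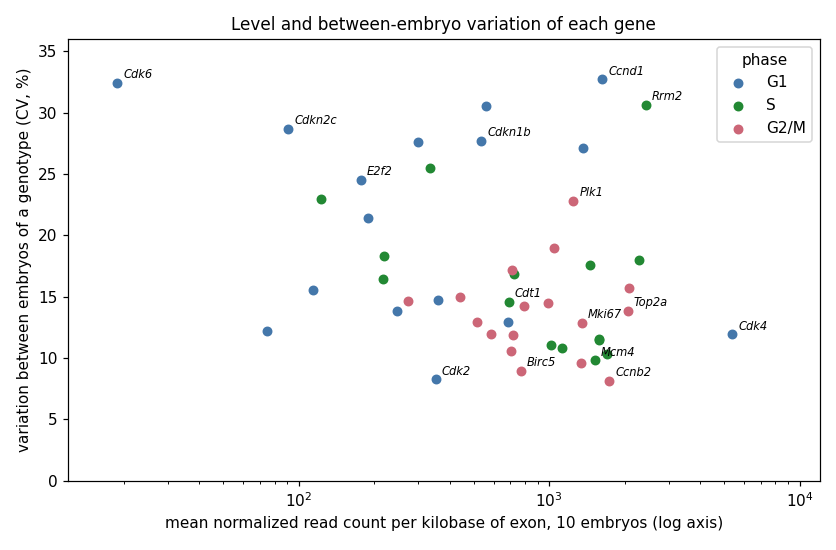
Coefficient of variation between embryos of a genotype (%, vertical axis), a single fitted value per gene, against the mean normalized read count per kilobase of exon (horizontal log axis) for the 48 genes, coloured by phase. *Cdk4* has the highest level (5390.2) and *Cdk6* the lowest (18.8), and *Ccnd1* has the highest variation (32.7%).

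Genes with and without each motif overlapped in their changes. The 14 genes with an E2F match had a median log2 fold change of -0.18 for KO against wildtype embryos and a range from -0.88 to 0.89, beside 0.00 and a range from -0.83 to 1.03 for the 25 without one. The 16 genes with a CHR match had a median of 0.01, with values between -0.88 and 0.28, and the 23 without one had -0.11. Those with CCAAT, 28 genes, had a median of -0.04 and the 11 others -0.29. Both groups of each motif held genes that passed the test.

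A wider list of the same machinery, 107 genes that were found of 110 named and are not among the 48, gave 9 higher and 3 lower genes for KO against wildtype embryos, 11.2% of its genes beside 25.8% of all. Its median log2 fold change was -0.10, with 68 genes below 0. Of 6 other CDK inhibitors 2 were higher. *Cdkn1a*, which encodes p21, had means of 695 among wildtype, 622 among heterozygous and 1408 among KO embryos (log2 fold change 1.02, SE 0.37, adjusted p = 0.0317). *Cdkn2a*, the locus of p16 and p19ARF, had 4.69, 3.99 and 45.7, a low count with a wide error (3.28, SE 1.01, adjusted p = 0.0106). Of 13 other cyclins and CDK regulators, *Mnat1*, a subunit of the CDK-activating kinase, and *Cks1b*, a CDK-binding protein, were higher (0.84 and 0.55, adjusted p = 0.0054 and 0.00995). The low-count cyclin gene *Ccnb3* was lower (-2.38, SE 0.73, adjusted p = 0.0107), with means of 15.6 in wildtype and 2.99 in KO embryos.

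Of the replication genes on that list, the DNA polymerase delta subunits *Pold1* and *Pold2* were higher (0.37 and 0.74, adjusted p = 0.00344 and 0.00689) among 18 polymerase, clamp loader and RPA genes. *Gins2*, a partner of the MCM helicase, was higher (0.34, adjusted p = 0.0239) among 14 genes of origin recognition and helicase activation, and 0 of 5 nucleotide supply genes passed. Of 9 tested genes of the ubiquitin ligases, the enzymes *Ube2c* and *Ube2s*, which serve the anaphase-promoting complex, were higher (0.45 and 0.70, adjusted p = 0.0257 and 0.0196). *Aspm*, a spindle pole protein of dividing neural progenitors, was lower (-0.67, SE 0.24, adjusted p = 0.0307) and was the one spindle and kinesin gene of 13 that passed. *Lin52*, a subunit of the DREAM complex, was lower (-0.61, adjusted p = 0.0223) among 10 factors of that group. None of 10 kinetochore genes and none of 9 condensin, separase and passenger genes passed. Scaled by total counts, 56 of the 107 genes passed, 2 higher and 54 lower, beside 39.2% of all genes, 30.9% lower.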

How the data were processed

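RNA of 10 whole embryos was sequenced after poly(A) selection with NEBNext Ultra RNA libraries, and the total count per embryo was not given in the sources used here. According to the submitters' processing notes, reads were trimmed with Trimmomatic 0.33, aligned to mm10 with HISAT2 and counted per gene with HTSeq, and the paper's methods name a directional kit. The strand setting of the counting was not given in the sources used here. The authors fitted DESeq2 to the counts and deposited, per gene, the mean normalized read count over all embryos (a coverage signal scaled by size factors). The deposited log2 fold changes, their standard errors and the p-values with Benjamini-Hochberg adjustment come from that fit by the authors, for KO versus wildtype and heterozygous versus wildtype embryos. Columns of comparisons made by the authors would usually be left aside. Here they hold the spread that the tests need, so their values are used and are named as those of the deposited table.

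From the overall mean and both fold changes, the mean of each genotype was solved. A negative binomial dispersion per gene was solved from each standard error, and for each of the 48 genes both estimates agreed within 1.8%. From these followed the standard errors of the genotype means, the coefficient of variation and a two-sided Wald test of KO versus heterozygous embryos, adjusted over 20653 genes. A single dispersion per gene serves all genotypes, so these errors cannot show that a genotype varied more than another. The derivation was tested on simulated data. The simulated standard errors used the same variance formula with known dispersions, so this does not test the comparison with estimated dispersions. Intervals are 95% (1.96 standard errors). The threshold was an adjusted p under 0.05, and the deposited table adjusts KO versus wildtype embryos over the 17477 genes with a mean of at least 2.44. Nothing in the labels says that embryos came from separate litters, so p-values measure the spread between these embryos.

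The 48 genes, their phases, the wider list, the marker lists and the motifs were chosen with earlier results of these data known. All 48 genes are accounted for, of the wider list at most the 3 genes per role with the smallest p among those that passed are named, and *Birc5* is named in any case. Exon lengths and gene positions are from GENCODE M21 (GRCm38) and promoters from RefSeq (GRCm38.p6). Python 3.11.15, pandas 2.3.3, numpy 2.4.6, scipy 1.17.1 and matplotlib 3.10.9 were used.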

Additional observations from a re-analysis of the deposited data

How the results depend on the processing

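Scaling by total counts in place of the authors' size factors raised the genes that passed between KO and wildtype embryos from 5 to 24. The share of all genes rose with them, from 25.8% to 39.2%. Between KO and heterozygous embryos 18 passed in place of 5, while the share of all genes went from 21.4% to 32.8%. The same scaling raised those of the wider list from 12 to 56 between KO and wildtype embryos. It lowers every log2 fold change by 0.25 by construction, so the medians of the S and G2/M genes became -0.30 and -0.22, and the sign changed for 17 genes, of which none had passed with the size factors and *Ccnb2* passed as lower under this scaling (adjusted p = 0.032): -0.23 for *Cdk4*, -0.24 for *Rb1*, -0.25 for *E2f8*, -0.059 for *Gmnn*, -0.014 for *Mcm2*, -0.15 for *Mcm3*, -0.17 for *Mcm5*, -0.14 for *Ccna2*, -0.23 for *Ccnb2*, -0.22 for *Cdk1*, -0.16 for *Mybl2*, -0.22 for *Aurka*, -0.24 for *Aurkb*, -0.18 for *Cdc20*, -0.033 for *Top2a*, -0.11 for *Cenpa* and -0.037 for *Birc5*. Of the others, 19 then passed, 1 (*Cdt1*) no longer did and 11 kept their side of the threshold. With a t distribution on 7 degrees of freedom, 0 of the 48 genes passed in any comparison, 0 of the wider list passed between KO and wildtype embryos, and 0 of all 17477 genes did, so this setting cannot separate genes here. Tested against a log2 fold change of 0.5, 0 of the 48 genes and 0 of the wider list passed for KO against wildtype, beside 325 of all genes (1.86%). Against heterozygous embryos 0 of the 48 passed, beside 270 of all genes (1.31%). With shares this low, a count of 0 does not set these genes apart. Without the filter on low means 3 of the 48 genes passed between KO and wildtype embryos (*Cdkn1b*, *E2f2* and *Cdt1*), beside 19.9% of all genes. *Cdkn2c* and *Mki67* did not, since 20653 genes enter the adjustment. With means of at least 50 there were 6, *Cdk6* being added, beside 31.5% of all genes with such means. No gene of the 48 passed between heterozygous and wildtype embryos under any of these. Means weighted by the inverse squared error were -0.18 in G1, 0.02 in S and 0.04 in G2/M, beside medians of -0.31, -0.06 and 0.02. Each lay within the median standard error of single genes of that phase, which is not an error of the phase median. No paired analysis was possible because the files used here hold no values per embryo, and for the same reason embryos were not left out in turn. So 1 embryo that decides a value would not be seen. The lowest mean of the 48 genes was 243 normalized counts (*Cdkn2c*), where counting error weighs most.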
